A study of Arabidopsis thaliana with 12 samples.

Results

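This account follows 4 Arabidopsis thaliana genes for enzymes of pectin: AT4G23820 and AT3G42950, which are pectin lyase-like, the pectate lyase AT5G63180 and the pectin methylesterase PME61 (AT3G59010, also named PME35). They are 4 of the 13355 genes that the array annotation used here gives a single-gene probe set. Each is read by 1 such probe set, and all 4 were found. They were chosen by their intensity differences between the groups on these very arrays, so their levels and differences are given as a description, with no test. Other pectin genes on the array, listed by family, were tested.

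RNA was taken from the lowest 4 cm of inflorescence stems with a height of 12 to 17 cm. All plants were of ecotype Col-0 and were raised at 22 °C with a 16 h day and an 8 h night. The 12 Affymetrix arrays form 4 groups of 3: C3H14-OE, plants that overexpress the CCCH zinc finger gene C3H14; C3H15-OE, which overexpress its relative C3H15; c3h14c3h15, the double mutant of both genes; and WT, the wild type. The labels number 3 biological replicates a group but do not settle whether those of an overexpressor are separate transgenic lines or plants of 1 line, so a p-value here reflects only how far these samples spread. The promoter of the overexpression constructs and the mutant alleles were not given in the sources used here.

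Pectin is a family of galacturonic acid-rich polysaccharides of the primary wall and of the middle lamella that glues cells together. It is laid down with its acid groups methylated; pectin methylesterases remove the methyl groups, inhibitor proteins hold these esterases in check, and polygalacturonases and pectate lyases cut the demethylated backbone. In growing stems this balance bears on how stiff or extensible walls are and how firmly cells adhere, and PME35 is known in Arabidopsis to act on pectin in the primary wall of interfascicular fibres, which bear on the mechanical strength of the stem.

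Some arrays stood apart from their group over all probe sets. Along the leading principal component (44.5% of the variance) C3H14-OE replicate 3 scored 40.8, beside 27.6 to 48.1 for C3H15-OE. The double mutant replicate 1 (-18.5) and WT replicate 2 (-5.21) were those of their groups nearest to the overexpressors, whose other C3H14-OE arrays scored 14.7 and 8.14. The C3H14 probe set read 344, 547 and 135 in C3H14-OE, where the last, replicate 3, lay inside the WT values of 129, 69.5 and 173. It read 36.3, 41.9 and 63.4 in C3H15-OE, below every WT array, and 93.7, 86.1 and 67.9 in the double mutant, of which only the last lay below the WT range. Where this probe set lies relative to the mutant lesion is not known, so it does not check the mutant label, and C3H14-OE replicate 3 and the mutant arrays are called by their labels throughout. No probe set is named here for C3H15. The labelled tissue was checked with secondary wall genes: 3 of 16 were named (IRX15, IRX15-L and GUT2, also called IRX10), at intensities of 91.9 to 1451 over the arrays, while 5 of 7 anther and pollen markers were named and read 3.75 to 36.8. Of 5 epidermis markers 0 were named. Of 4 phloem markers 1 was, AT3G03270, whose place in phloem is uncertain, so that list was not used to judge tissue; its mean was 8.34 in C3H14-OE, 8.33 in C3H15-OE, 8.21 in the mutant and 7.71 in WT (log2), above WT in the other groups as for PME61. Values below are given with and without the 3 arrays that stood apart where that matters. These arrays were picked within these same data. Leaving out WT replicate 2 and mutant replicate 1 sets their groups farther from the overexpressors along this component by construction. Wider differences without them are therefore no separate support.

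AT4G23820, a pectin lyase-like gene, had intensities of 81.4, 107 and 42.4 in C3H14-OE, 41.0, 48.7 and 43.2 in C3H15-OE, 92.3, 542 and 359 in c3h14c3h15, and 346, 244 and 464 in WT (normalized intensity on a linear scale, replicates 1 to 3). All 6 overexpressor arrays lay below all 3 WT arrays, and the mutant arrays were split, with replicate 1 among the overexpressors and the other 2 among or above the WT arrays. Its mean was 6.16 ± 0.68 in C3H14-OE, 5.47 ± 0.13 in C3H15-OE, 8.03 ± 1.34 in the mutant and 8.41 ± 0.46 in WT (log2 intensity, SD, n = 3 each). The difference from WT was -2.24 log2 units in C3H14-OE (SE 0.54), a 4.74-fold lower level. In C3H15-OE it was -2.94 (SE 0.54), a 7.69-fold lower level. In the mutant it was -0.38 (SE 0.54), less than the spread of its arrays, and it was 0.38 without mutant replicate 1 and 0.14 without all 3 arrays that stood apart.

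The pectate lyase AT5G63180 was either dim or bright on these arrays. It read 17.6, 21.5 and 15.2 in C3H14-OE, 12.6, 12.0 and 12.9 in C3H15-OE, 24.8, 432 and 254 in c3h14c3h15, and 183, 21.6 and 316 in WT. The overexpressor arrays were all low, mutant replicate 1 and WT replicate 2 were only a little above them, and the other 4 mutant and WT arrays were far brighter. WT replicate 2 (21.55) lay just above C3H14-OE replicate 2 (21.45), so that these groups did not overlap only by that margin. Within a group the highest array was 17.4 times the lowest in the mutant and 14.7 times in WT, against 1.41 times in C3H14-OE and 1.07 times in C3H15-OE. On the C3H15-OE arrays only 27.8% to 28.2% of probe sets were dimmer, and all overexpressor values lay within the range of the anther and pollen markers (3.75 to 36.8), so they are not shown to be above background and the size of the difference is uncertain.

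The group means of AT5G63180 were 4.16 ± 0.25 in C3H14-OE, 3.64 ± 0.05 in C3H15-OE, 7.13 ± 2.19 in the mutant and 6.75 ± 2.05 in WT (log2, SD, n = 3 each). It stood at -2.59 against WT in C3H14-OE and at -3.11 in C3H15-OE (SE 1.02 for each), 6.01-fold and 8.64-fold lower. Without WT replicate 2 these were -3.75 and -4.27, and without WT replicate 3 they were -1.81 and -2.33. With 16 added to every intensity before the logarithm, which damps dim values, they were -1.99 and -2.25. The direction in the mutant hung on single arrays: 0.38 (SE 1.02) with all of them, 1.62 without mutant replicate 1, and -0.78, -0.44 and -0.06 without WT replicate 2, mutant replicate 2 and mutant replicate 3.

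AT3G42950, the second pectin lyase-like gene, had its group means in the same order as AT5G63180. It read 141, 154 and 132 in C3H14-OE, 102, 79.6 and 154 in C3H15-OE, 277, 399 and 365 in c3h14c3h15, and 219, 168 and 279 in WT. Its 6 overexpressor arrays lay below every WT array, though the highest of them were close to WT replicate 2, and the mutant overlapped WT only through the pair of mutant replicate 1 and WT replicate 3. The mean was 7.15 ± 0.11 in C3H14-OE, 6.75 ± 0.48 in C3H15-OE, 8.42 ± 0.27 in the mutant and 7.76 ± 0.36 in WT (log2, SD, n = 3 each). Against WT it stood at -0.61 in C3H14-OE, at -1.01 in C3H15-OE (2.02-fold lower) and at 0.66 in the mutant (1.58-fold higher; SE 0.24 for each).

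The methylesterase PME61 went the other way. It read 910, 954 and 814 in C3H14-OE, 1048, 1387 and 985 in C3H15-OE, 1014, 817 and 805 in c3h14c3h15, and 658, 568 and 780 in WT. All 9 arrays of the other groups were brighter than every WT array, the closest being the mutant arrays at 805 and 817 beside WT replicate 3 at 780. The means were 9.80 ± 0.12 in C3H14-OE, 10.14 ± 0.26 in C3H15-OE, 9.77 ± 0.19 in the mutant and 9.37 ± 0.23 in WT (log2, SD, n = 3 each). The difference from WT was 0.77 in C3H15-OE (1.70-fold higher), 0.43 in C3H14-OE and 0.40 in the mutant (SE 0.16 for each); without the 3 arrays that stood apart the mutant value was 0.18.

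**Figure D1:**
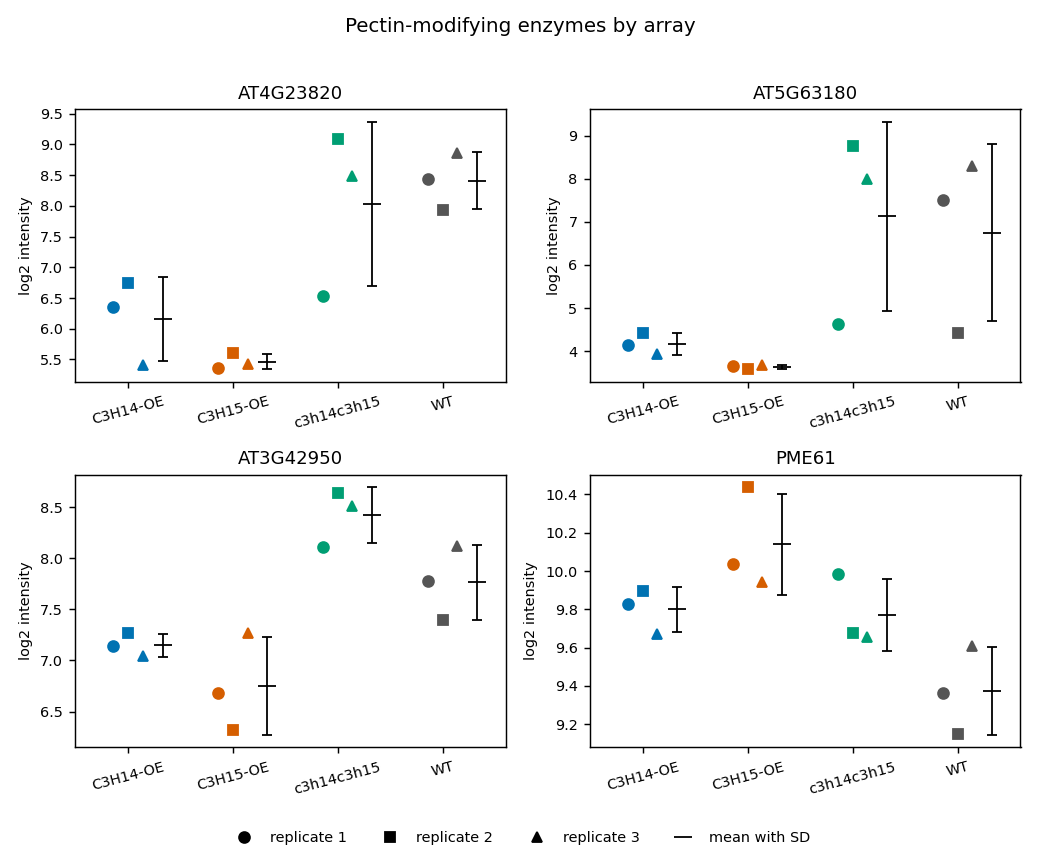
Log2 intensity (y axis) of each of the 4 genes on every array, by group (x axis), with the group mean and SD (n = 3) as a bar beside the points. AT4G23820, AT5G63180 and AT3G42950 lie below WT on all 6 overexpressor arrays, AT5G63180 is split within the mutant and WT, and PME61 lies above WT on all 9 other arrays.

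Ordered by mean level, AT4G23820 and AT5G63180 were lowest in C3H15-OE, then C3H14-OE, with WT and the mutant above. For AT4G23820 the mutant overlapped WT, and the overexpressors overlapped each other. For AT5G63180 the C3H15-OE arrays lay below those of C3H14-OE, whereas the mutant overlapped WT. AT3G42950 ran from C3H15-OE through C3H14-OE and WT to the mutant, and only the step from C3H14-OE to WT was free of overlap. PME61 ran from WT through the mutant and C3H14-OE to C3H15-OE, with overlap between the mutant and C3H14-OE.

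The 2 overexpressors were also set against each other. C3H14-OE minus C3H15-OE was 0.70 for AT4G23820 (SE 0.54), 0.40 for AT3G42950 (SE 0.24), 0.52 for AT5G63180 (SE 1.02) and -0.34 for PME61 (SE 0.16). For all 4 genes C3H14-OE thus lay between C3H15-OE and WT in mean. The C3H14-OE arrays did not overlap those of C3H15-OE for AT5G63180 and PME61, nor did they for 17.2% of all probe sets. The overexpressor values of AT5G63180 lay within the range of the anther and pollen markers, so the size of its difference is uncertain. With 16 added before the logarithm it was 0.26. Each SE is pooled over all 4 groups, so that of AT5G63180 does not reflect the spread of the overexpressors alone. Its SD was 0.25 in C3H14-OE and 0.05 in C3H15-OE, against 2.19 in the mutant and 2.05 in WT. For AT4G23820 the 2 groups overlapped through C3H14-OE replicate 3 at 42.4, and without that array the difference was 1.08, against 0.41 when C3H14-OE replicate 2 was left out. On leaving out C3H15-OE replicate 2 the difference was 0.18 for AT3G42950 and -0.19 for PME61, and on leaving out C3H15-OE replicate 3 it was 0.65 for AT3G42950.

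Against the double mutant, C3H15-OE stood at -3.49 for AT5G63180 (SE 1.02), at -2.57 for AT4G23820 (SE 0.54) and at -1.67 for AT3G42950 (SE 0.24), and at 0.37 for PME61 (SE 0.16). The C3H15-OE arrays lay below every mutant array for AT5G63180, AT4G23820 and AT3G42950, and overlapped the mutant for PME61. Without mutant replicate 1 the values for AT5G63180 and AT4G23820 were -4.73 and -3.32.

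**Figure D2:**
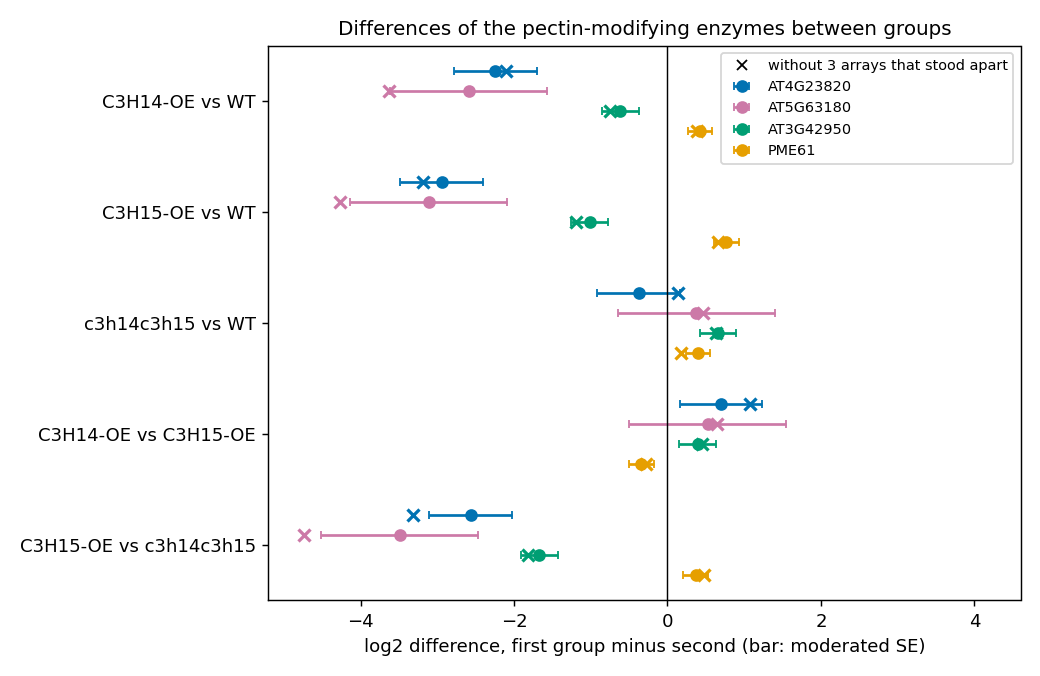
Log2 difference of group means, first group minus second (x axis), for the 4 genes in 5 comparisons (y axis); circles with bars give the value with all 12 arrays and its moderated standard error, and crosses the value without the 3 arrays that stood apart. AT5G63180 has the widest bars, and without those arrays it lies at -4.27 for C3H15-OE against WT.

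As a description only, the counts past an adjusted p of 0.05 in the limma fit over all 22746 probe sets were as follows. In C3H15-OE against WT 3 of the 4 genes passed (AT4G23820 and AT3G42950 lower, PME61 higher), where 6.65% of all probe sets did (3.57% lower, 3.09% higher), and AT5G63180 did not. In C3H14-OE 0 of 4 passed (4 at an unadjusted p under 0.05), where 0.044% of all did, and in the mutant 0 of 4 (2 unadjusted), where 5.7% did. Of all probe sets 13.98% in C3H14-OE, 21.79% in the mutant and 9.79% between the overexpressors reached an unadjusted p under 0.05. Between the overexpressors 0 of 4 passed (0 unadjusted), with 0.123% of all, and in C3H15-OE against the mutant AT4G23820, AT3G42950 and AT5G63180 were lower, 3 of 4, with 23% of all called and 10.7% called lower. Groups did not overlap for 4 of 4 genes in C3H14-OE and in C3H15-OE against WT, where 21.3% and 29.6% of all probe sets did not, and for 1 of 4 in the mutant (23.9%). They did not overlap for 2 of 4 between the overexpressors (17.2%) and for 3 of 4 between C3H15-OE and the mutant (39.4%). Because these contrasts chose the genes, nothing is read from the counts. The 3 comparisons with WT share the WT arrays.

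Within WT and C3H14-OE the 4 genes shared their lowest and highest arrays. In WT each was lowest on replicate 2 and highest on replicate 3, and in C3H14-OE each was lowest on replicate 3 and highest on replicate 2, PME61 included although its groups ran the other way. C3H14 itself was lowest and highest on those same WT and C3H14-OE arrays. In the mutant AT4G23820, AT3G42950 and AT5G63180 were lowest on replicate 1, where PME61 was highest. In C3H15-OE no array was shared in this way: AT4G23820 was lowest on replicate 1, AT3G42950 and AT5G63180 on replicate 2, and PME61 on replicate 3. The other pectin-modifying genes showed a similar tilt: of 61 of them WT replicate 2 was the lowest WT array for 36 (59%, against 35% of all probe sets) and WT replicate 3 the highest for 35 (57.4% against 29.9%). C3H14-OE replicate 3 was lowest in its group for 33 (54.1% against 46.3%) and mutant replicate 1 for 33 (54.1% against 35.6%). The part of these array differences in the group differences was not tested beyond leaving the arrays out.

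The 3 secondary wall genes named, of 16 listed, were lower than WT in both overexpressors, as were AT4G23820, AT5G63180 and AT3G42950. The summed intensity of IRX15, IRX15-L and GUT2, which make the xylan of secondary walls, ran from 718 to 854 in C3H14-OE, 385 to 877 in C3H15-OE, 2132 to 2784 in the mutant and 1180 to 1371 in WT. The 3 xylan genes thus had the order of group means of AT3G42950 and AT5G63180, with the mutant above WT. For both of those genes, however, the mutant overlapped WT, and for AT5G63180 its direction hung on single arrays. With AT4G23820, whose mean was lower in the mutant than in WT, the xylan genes shared only the low level in both overexpressors. The summed intensity of the 2 named photosynthetic genes of 8, RCA and LHCB4.1, ran from 5613 to 7526 in C3H14-OE, 6722 to 7409 in C3H15-OE, 10374 to 11840 in the mutant and 7869 to 8556 in WT. In whole stem pieces fewer cells of a type and less RNA per cell cannot be told apart, and the part of tissue makeup in the values of the 4 genes was not tested.

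For each gene the 3 single-gene probe sets with the highest Pearson correlation of log2 intensity over the 12 arrays were taken, among those at or above the median brightness (6026 or 6027 candidates). This is a description without a test, since the points share arrays and group differences. AT4G23820 was most like AT5G26740 (r = 0.980), AT4G38690 (r = 0.970) and At1g78690p (r = 0.965). AT3G42950 was most like PRA1.B4, a prenylated Rab acceptor (r = 0.987), AT5G50370 (r = 0.976) and AT1G56720 (r = 0.975). AT5G63180 was most like AT1G26920 (r = 0.959), LCR68, a low-molecular-weight cysteine-rich peptide also named PDF2.3 (r = 0.952), and AT1G12500 (r = 0.949). PME61 was most like AT1G31850 (r = 0.932), AT3G16560 (r = 0.899) and AT1G72800 (r = 0.890).

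The rest of the pectin machinery was taken from family lists by membership of an enzyme class, not by the genes' own values. Of the 94 genes for pectin modification listed, 65 had a named probe set, the 4 genes above among them, and 61 were counted. They comprise 17 methylesterases, 8 esterase inhibitors, 10 genes of the polygalacturonase family, 18 pectate lyases, and 8 pectin acetylesterases and rhamnogalacturonan lyases. The lists also place the pectin lyase-like AT4G23820 and AT3G42950 in the polygalacturonase family, which had 12 named genes with them. Of 40 genes for pectin synthesis only 3 were named, which says little of synthesis at large. Most carry only a locus number in the given tables, and their class comes from the lists.

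In C3H14-OE 0 of 61 modification genes passed the threshold in limma (15 at an unadjusted p under 0.05), where 0.044% of all probe sets passed. Their median difference from WT was -0.15, against -0.04 for all probe sets, and 14 of 61 lay above WT, as did 43.4% of all probe sets. An unadjusted p under 0.05 was reached by 13.98% of all probe sets. The largest differences each way were -1.98 for the esterase inhibitor gene AT4G25260 (SE 0.51, adjusted p = 0.187) and 0.83 for the pectate lyase gene AT3G27400 (SE 0.36, adjusted p = 0.341). On the C3H14-OE arrays AT4G25260 lay within the range of the anther and pollen markers, so the size of its difference is uncertain. Among the 8 esterase inhibitor genes, a class singled out after its values were seen, 6 lay below WT with no overlap of arrays, where 11.9% of all probe sets did, and 0 passed (6 unadjusted). Some of the 6 were dim in both groups, down to log2 means of 2.42 in C3H14-OE and 2.67 in WT (difference -0.25). Those are not shown to be above background, so their part in this count is uncertain. Without the 3 arrays that stood apart 2 of the 61 were lower and 0 higher, where 0.835% of all probe sets passed. None of the 3 synthesis genes passed (0 unadjusted), with differences of -0.28 to 0.09.

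In C3H15-OE 2 of the 61 modification genes rose and 3 fell (8.2%, against 6.65% of all probe sets), a share near that of the whole array. The median was -0.21, against -0.03 for all probe sets, and 13 of 61 lay above WT, as did 44.6% of all probe sets. The esterase inhibitor gene AT1G62760 read 68.2, 63.9 and 43.7 in C3H15-OE and 21.1, 23.5 and 14.4 in WT, and rose by 1.58 log2 units (SE 0.20, adjusted p = 0.00384). A second, dimmer probe set of AT1G62760 did not show this (-0.12, adjusted p = 0.77), so the call rests on 1 of its 2 probe sets. The methylesterase gene AT3G43270 read 109, 114 and 151 in C3H15-OE and 62.6, 58.7 and 64.5 in WT, and rose by 0.99 (SE 0.18, adjusted p = 0.0133).

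The 3 that fell in C3H15-OE belong to 3 classes, 2 of which also hold a rise. The inhibitor gene AT4G25260 changed by -1.91 (SE 0.51, adjusted p = 0.0451), with 16.7, 16.0 and 29.7 in C3H15-OE and 97.95, 39.2 and 111 in WT. Its C3H15-OE values lie within the range of the anther and pollen markers (3.75 to 36.8). They are thus not shown to be above background and the size of this fall is uncertain. With 16 added before the logarithm the difference was -1.35. The methylesterase ATPMEPCRD (AT2G43050) changed by -1.59 (SE 0.36, adjusted p = 0.0279), with 96.1, 74.2 and 56.2 in C3H15-OE and 249, 131 and 333 in WT. The polygalacturonase family gene AT1G19170 changed by -0.71 (SE 0.15, adjusted p = 0.0236), with 128, 128 and 149 in C3H15-OE and 238, 179 and 250 in WT. All 5 changes were free of overlap between the groups, as were 29.6% of all probe sets. Calls on these same arrays picked the 5, so this is no separate support. WT replicate 2 was the lowest WT array for each of the 3 that fell. None of the 18 pectate lyase genes (6 unadjusted) passed, nor any of the 8 acetylesterase and rhamnogalacturonan lyase genes (1 unadjusted) or the 3 synthesis genes (0 unadjusted). Beside these unadjusted counts, 24.57% of all probe sets reached an unadjusted p under 0.05.

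These calls were sensitive to single arrays, while the differences kept their direction and most of their size: on leaving out 1 array they ran from -0.86 to -0.61 for AT1G19170, -1.97 to -1.29 for ATPMEPCRD, -2.38 to -1.63 for AT4G25260, 0.85 to 1.09 for AT3G43270 and 1.37 to 1.78 for AT1G62760. The fall of AT1G19170 was lost without WT replicate 1 (adjusted p = 0.0929), WT replicate 3 (0.0872), C3H15-OE replicate 1 (0.0901) or C3H15-OE replicate 2 (0.0819). That of ATPMEPCRD was lost without WT replicate 1 (0.105), WT replicate 3 (0.0981) or C3H15-OE replicates 1 (0.0591), 2 (0.0819) or 3 (0.0614). That of AT4G25260 was lost on leaving out WT replicates 1 (0.156) or 3 (0.146), C3H15-OE replicates 1 (0.15) or 2 (0.142), C3H14-OE replicates 1 (0.0621) or 2 (0.0602), or mutant replicate 3 (0.0574). It was lost too when replicate numbers entered as a block (0.0624), with an intensity trend and robust moderation (0.068) and with 16 added before the logarithm (0.0849), the last of which also ended that of ATPMEPCRD (0.0525). The rise of AT3G43270 was lost without WT replicate 1 (0.0583), and that of AT1G62760 held each time. Without the 3 arrays that stood apart 2 were higher and 10 lower, where 12.7% of all probe sets passed. The count of falls was 0 without WT replicate 1, WT replicate 3, C3H15-OE replicate 1 or C3H15-OE replicate 2, 5 without WT replicate 2 and 6 without mutant replicate 1, and that of rises was 1 without WT replicate 1. The calls over all probe sets moved with these settings: 0.98%, 1.77%, 1.34% and 1.49% passed without WT replicate 1, WT replicate 3, C3H15-OE replicate 1 and C3H15-OE replicate 2, 6.91% without WT replicate 2 and 8.88% without mutant replicate 1.

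In the double mutant 2 of the 61 modification genes rose and 0 fell, a share of 3.28% against 5.7% of all probe sets. The median was 0.04, against -0.01 for all, and 36 of 61 lay above WT, as did 48% of all probe sets. Both that rose are of the polygalacturonase family. AT1G48100 read 51.4, 20.7 and 50.2 in the mutant and 15.2, 12.3 and 13.5 in WT, a rise of 1.47 (SE 0.28, adjusted p = 0.0149), and AT1G19170 read 316, 424 and 432 in the mutant and 238, 179 and 250 in WT, a rise of 0.81 (SE 0.15, adjusted p = 0.0145). The WT values of AT1G48100, and those of AT1G62760 above, lie within the range of the anther and pollen markers, so they are not shown to be above background and the size of these rises is uncertain. AT1G19170 was lower than WT in C3H15-OE and higher than WT in the mutant, in comparisons that share the WT arrays, and its direct difference of C3H15-OE from the mutant was -1.52 (SE 0.15, adjusted p = 0.000242). Of the 3 named synthesis genes 2 rose in the mutant: AT5G15740 by 0.89 (SE 0.21, adjusted p = 0.0299), with 206, 110 and 164 in the mutant and 76.8, 80.4 and 94.5 in WT, and AT3G49720 by 0.68 (SE 0.15, adjusted p = 0.0238), with 564, 659 and 725 in the mutant and 415, 360.5 and 436 in WT.

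Fitted on the mutant and WT arrays alone, which then give the spread by themselves, all 4 of these calls were lost (adjusted p = 0.0633 for AT1G48100, 0.0642 for AT1G19170, 0.0868 for AT5G15740 and 0.0543 for AT3G49720). The differences themselves are the same in that fit, and 2.39% of all probe sets passed in it, against 5.7% with all arrays. The like fit for C3H15-OE against WT passed 7.41%, against 6.65% with all arrays. Why the calls were lost was not tested. AT1G48100 was lost without WT replicate 2 (0.0553) or mutant replicate 3 (0.0513), and AT1G19170 without mutant replicate 3 (0.0502). AT5G15740 was lost without WT replicate 1 (0.105), WT replicate 2 (0.0839), mutant replicate 1 (0.0752) or mutant replicate 3 (0.0823). AT3G49720 was lost without WT replicate 1 (0.0693), WT replicate 2 (0.0793), mutant replicate 2 (0.0533) or mutant replicate 3 (0.0728). Without the 3 arrays that stood apart 1 modification gene and 0 synthesis genes were higher, where 1.68% of all probe sets passed.

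**Figure D3:**
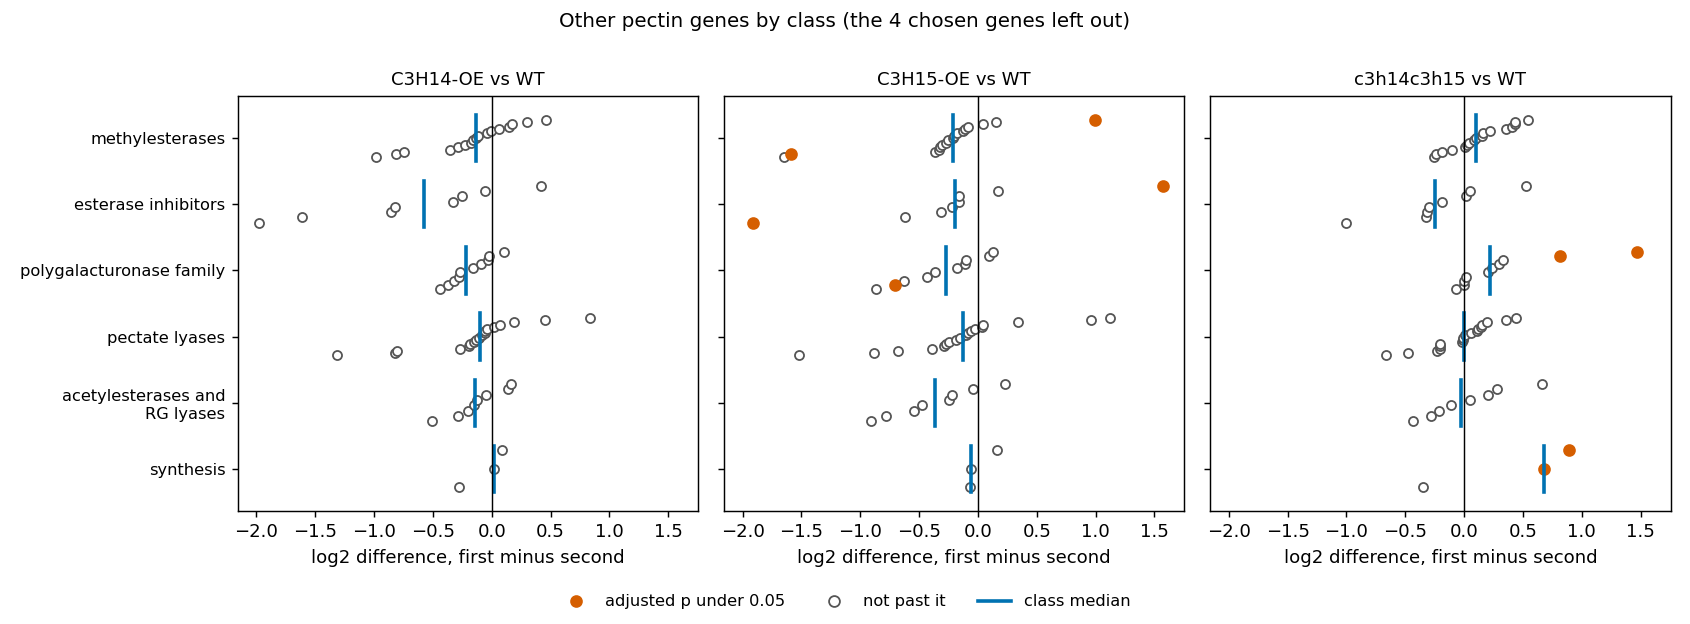
Log2 difference from WT (x axis) of each other pectin gene, by class (y axis), in C3H14-OE, C3H15-OE and the double mutant; filled points passed an adjusted p of 0.05 in limma and blue bars are class medians. In C3H15-OE the methylesterases and the inhibitors each hold 1 rise and 1 fall and the polygalacturonase family 1 fall, and in the mutant the 2 filled modification genes are both of the polygalacturonase family.

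Between the overexpressors 0 of the 61 modification genes passed (6 unadjusted), where 0.123% of all probe sets did (9.79% unadjusted), with a median of 0.04 for C3H14-OE minus C3H15-OE. The largest differences in each direction were -1.45 for the inhibitor gene AT5G62360 (SE 0.51, adjusted p = 0.36) and 0.90 for the methylesterase gene AT1G05310 (SE 0.70, adjusted p = 0.76). Of the 3 synthesis genes 0 passed (1 unadjusted). Without C3H15-OE replicate 3 AT1G62760 alone was lower in C3H14-OE (-1.36, adjusted p = 0.0118), a gene named after its values were seen. In that setting 0.805% of all probe sets passed. The second probe set of AT1G62760 did not show a difference with all arrays (-0.02, adjusted p = 0.99).

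C3H15-OE against the double mutant gave the most calls: 5 of 61 modification genes were higher and 10 lower (24.6%, against 23% of all probe sets), with a median of -0.21 against -0.03 for all. The 5 rises were in AT1G62760 (1.76, SE 0.20, adjusted p = 0.000402, and 0.06, adjusted p = 0.872, for its second probe set), the pectate lyase gene AT4G24780 (1.16, SE 0.32, adjusted p = 0.0223), AT3G43270 (0.99, SE 0.18, adjusted p = 0.00338), the rhamnogalacturonan lyase gene AT1G09910 (0.51, adjusted p = 0.0178) and the inhibitor gene AT3G47380 (0.49, adjusted p = 0.0161), which was at 6.88 to 12 on all arrays, again within the range of the anther and pollen markers. The 5 largest falls past the threshold were in AT1G48100 (-1.83, SE 0.28, adjusted p = 0.0013), ATPMEPCRD (-1.67, SE 0.36, adjusted p = 0.0072), AT4G25260 (-1.59, SE 0.51, adjusted p = 0.041), AT1G19170 (-1.52, given above) and the acetylesterase gene AT1G57590 (-1.14, SE 0.24, adjusted p = 0.00654). The C3H15-OE values of AT1G48100 and AT4G25260, and the mutant values of AT1G62760, also lay within the range of those markers. The size of these differences is thus uncertain. Of the 3 synthesis genes AT3G49720 (-0.75, adjusted p = 0.00472) and AT5G15740 (-0.95, adjusted p = 0.00744) were lower and GAUT15, a galacturonosyltransferase, was higher (0.51, adjusted p = 0.0355).

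The count of 5 higher was 2 without C3H15-OE replicate 2. It was 3 on leaving out mutant replicate 2 or mutant replicate 3. The count of 10 lower was 4 without C3H15-OE replicate 1, C3H15-OE replicate 2 or mutant replicate 3, 6 without WT replicate 1 or mutant replicate 2, and 16 without the 3 arrays that stood apart. Calls over all probe sets, 23% with all arrays, moved too. They were 13.7%, 14.8% and 16.7% without C3H15-OE replicate 1, C3H15-OE replicate 2 and mutant replicate 3. Without WT replicate 1, mutant replicate 2 and the 3 arrays they were 22%, 16.4% and 24.8%. The calls of AT1G62760, AT3G43270, AT1G48100, ATPMEPCRD, AT1G19170, AT1G57590, AT3G49720 and AT5G15740 in this comparison held on leaving out each array in turn. Those of AT4G24780, AT1G09910, AT3G47380, AT4G25260 and GAUT15 did not, with adjusted p of up to 0.0724, 0.0758, 0.0656, 0.14 and 0.115.

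**Figure D4:**
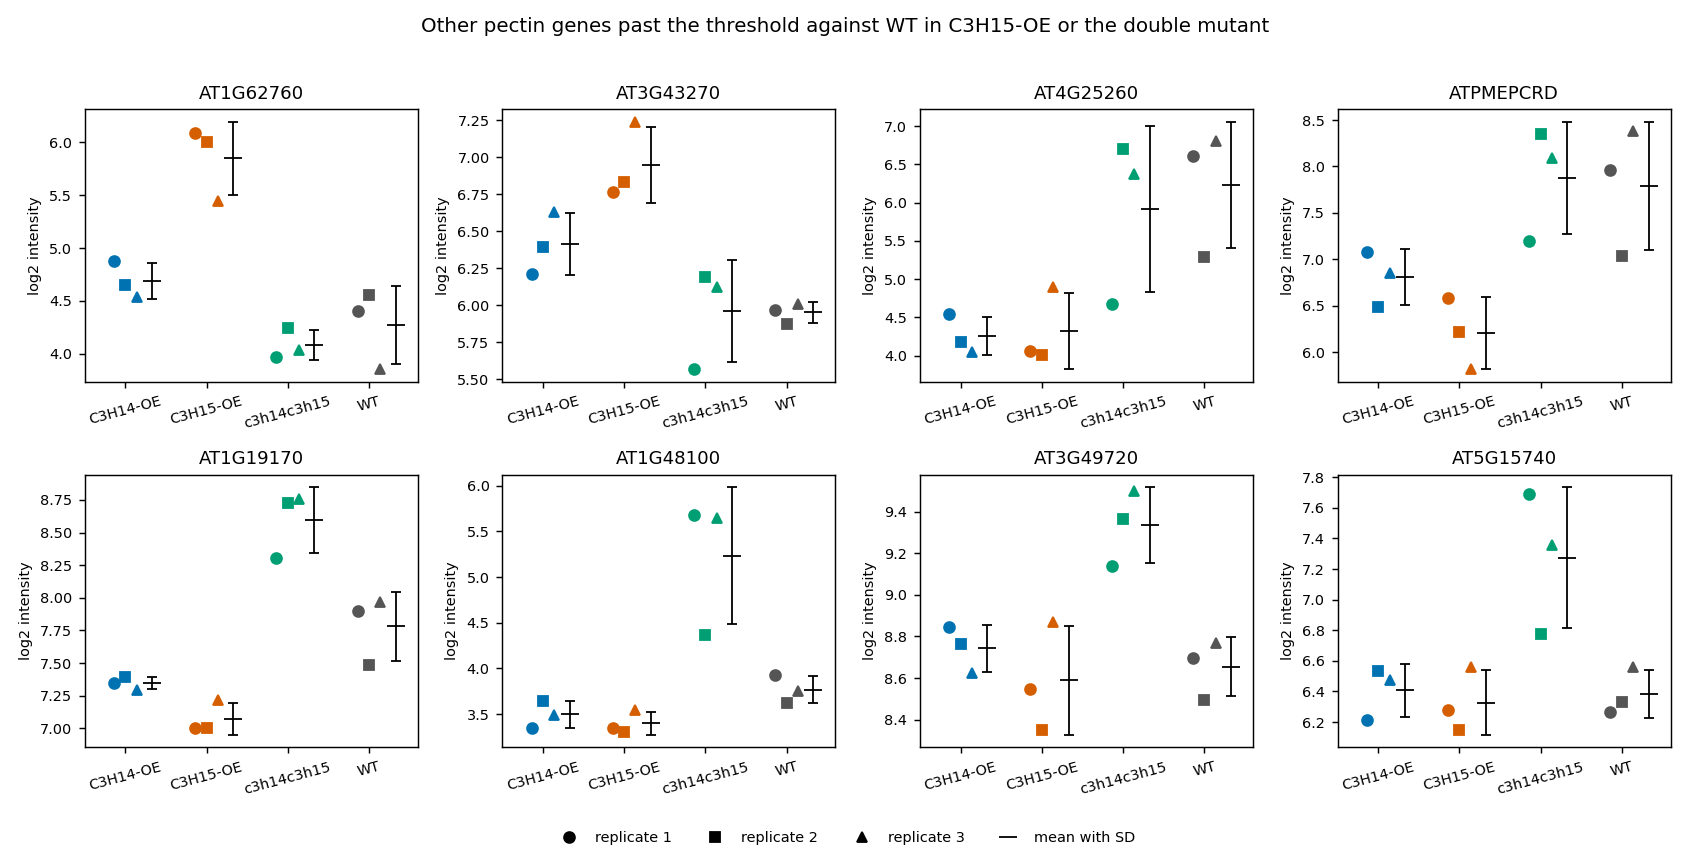
Log2 intensity (y axis) on every array, by group (x axis), of the 8 other pectin genes past the threshold against WT in C3H15-OE or the double mutant, with the group mean and SD (n = 3) beside the points. AT1G62760 and AT3G43270 are highest in C3H15-OE, AT4G25260 and ATPMEPCRD lie below WT on all 3 C3H15-OE arrays and are lowest in the mutant on replicate 1, and AT1G19170, AT1G48100, AT3G49720 and AT5G15740 are highest in the mutant.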

How the data were processed

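The deposited values are normalized intensity on a linear scale, made by the authors with RMA, per the submitters' processing notes; its version was not given in the sources used here. Labelled cRNA was made with a 3′ kit, per the labels' protocols, so a probe set reads the 3′ end of a transcript. Log2 was taken first. Of 22810 probe sets 64 controls were left out and 22746 tested with no filter; array medians lay between 5.65 and 5.84. Names came from the platform annotation, updated through RefSeq (TAIR10.1): 13513 probe sets had 1 gene, 503 several and 8730 none listed. The brightest probe set stood for a gene.

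All 12 arrays entered 1 limma model with group means (limma 3.58.1, R 4.3.3; 8 residual and 3.61 prior degrees of freedom), with Benjamini-Hochberg adjustment over 22746 probe sets. It was checked on simulated data. The number of arrays limits the precision. Whether the replicate numbers pair the samples is not known. Of 18 same-number pairs 4 correlated above 0.1 in their deviations from group means, and pairs of unlike number were not compared. The 4 genes and the lists were chosen with earlier results of these data known. Besides the 4 genes and the most correlated ones, the text names up to 5 rises and 5 falls of list genes per comparison, or the largest difference each way where none passed. Relatives by protein identity, also planned, were not analysed here. Alternatives were another normalization, a filter, an offset, other fits and leaving out arrays.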

Additional observations from a re-analysis of the deposited data

How the results depend on the processing

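The differences of the 4 genes kept their sign under every alternative run, except those of AT4G23820 and AT5G63180 between the mutant and WT, given above; with 16 added before the logarithm AT4G23820 stood at -2.57 in C3H15-OE against WT and AT5G63180 at 0.26 between the overexpressors, and without the 3 arrays that stood apart PME61 stood at 0.18 in the mutant against WT. Counts of other pectin genes were small and moved by over 1.5 times as follows. Without those 3 arrays, 2 modification genes were lower in C3H14-OE and 10 in C3H15-OE against WT, 1 modification gene and 0 synthesis genes were higher in the mutant, and against the mutant C3H15-OE had 16 modification genes lower and 0 synthesis genes higher. Of all probe sets 0.835%, 12.7%, 1.68% and 24.8% passed in these comparisons, in that order. With all arrays 0.044%, 6.65%, 5.7% and 23% did. With the dimmest 40% of probe sets left out, 1 modification gene was higher in C3H15-OE against WT, 1 was higher and 1 lower in the mutant, and 3 were higher in C3H15-OE against the mutant. Of all probe sets kept, 10.9%, 11.1% and 33.6% passed there. With 16 added, 1 was lower in C3H15-OE against WT and 5 against the mutant, where 4.77% and 22.4% of all probe sets passed. With array weights, 6 were lower in C3H15-OE against WT and 2 in C3H14-OE against C3H15-OE. The shares over all probe sets were 13% and 3.87% with these weights, against 6.65% and 0.123% in the main fit. Fitting only the arrays compared gave 0 modification and 0 synthesis genes higher in the mutant, and 0 synthesis genes higher in C3H15-OE against the mutant, as did a second quantile normalization and cyclic loess (0 each). With only the arrays compared, 2.39% of all probe sets passed in the mutant against WT. In C3H15-OE against the mutant these settings passed 16.8%, 22.3% and 21.9%, in that order. With the replicate number as a block, 1 gene was lower in C3H14-OE against C3H15-OE (AT1G62760, adjusted p = 0.0425), and in C3H15-OE against WT 2 were higher and 2 lower. Whether these numbers pair the samples is not known. With this block 0.0659% and 4.62% of all probe sets passed. In the main fit the second probe set of AT1G62760 stood at -0.02 between the overexpressors (adjusted p = 0.99). Leaving out 1 array at a time gave, for modification genes, 1 to 3 higher and 0 to 6 lower in C3H15-OE against WT, 0 to 3 higher in the mutant, 0 to 1 lower in C3H14-OE against C3H15-OE, and 2 to 6 higher and 4 to 14 lower in C3H15-OE against the mutant. For synthesis genes it gave 0 to 2 higher in the mutant and 0 to 1 higher in C3H15-OE against the mutant. Over all probe sets the share called then ran from 0.98% to 8.88% in C3H15-OE against WT. It ran from 1.59% to 6.3% in the mutant, 0% to 0.805% between the overexpressors and 13.7% to 23.3% in C3H15-OE against the mutant. The cause of these moves was not tested. The number of arrays, 3 a group, and the dim level of several of these genes limit the precision.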
